A study of Mus musculus with 11 samples.

Results

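Viral restriction factors are proteins that block a virus inside the infected cell, and 10 of their genes were followed here through mouse neuroblastomas treated with the drugs CBL0137 and panobinostat. They were taken by name from the 24411 genes of the expression table: Ifitm1, Ifitm2, Ifitm3, Bst2, Mx1, Mx2, Rsad2, Trim30a, Apobec3 and Samhd1. The tumours arose in homozygous Th-MYCN mice, whose MYCN transgene is driven by the tyrosine hydroxylase promoter and so acts in cells of the sympathetic lineage. Treatment began when a tumour could be felt at about 5 mm, and total RNA without ribosomal RNA was sequenced 16 h after a single dose. The combination group (n = 3) received CBL0137 at 40 mg/kg and panobinostat at 5 mg/kg. The CBL0137 group (n = 3) received 40 mg/kg intravenously, and the panobinostat group (n = 2, replicates 1 and 3) received 5 mg/kg intraperitoneally. The vehicle group (n = 3) received vehicle intraperitoneally, so the route of CBL0137 is not matched by it. CBL0137 is a curaxin, a DNA-binding compound that traps the histone chaperone FACT on chromatin, and panobinostat is an inhibitor of histone deacetylases. Strain, age and sex of the mice are not given in the sources used here.

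Restriction factors are mostly switched on by type I interferon. This cytokine binds its receptor, the kinases Jak1 and Tyk2 activate Stat2, which joins Irf9 in a complex that binds interferon-stimulated response elements (ISRE) in the promoters of its targets. The proteins then act at different steps: IFITM proteins at membrane fusion, Mx GTPases on incoming nucleoprotein, Trim30a in the TRIM family of ubiquitin ligases, Apobec3 and Samhd1 on reverse transcription, Rsad2 (viperin) on viral RNA synthesis and Bst2 (tetherin) on the release of budded particles. Tumours without a virus can express them as well, in the malignant cells or in the immune and stromal cells between them.

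Of the 10 genes, 8 had promoter windows of 300 bases in the RefSeq table for GRCm38.p6, the assembly also called mm10. The core of an ISRE, the letters GAAA, any 2 bases and GAAA again, was searched on both strands. It occurred in windows of 6 of these 8 genes, namely Bst2, Ifitm2, Ifitm3, Rsad2, Apobec3 and Trim30a. In the whole table it occurred in 3.99% of genes and in 3.44% of 32851 windows. The stretches that hold it are shown because it is the sequence feature most of the genes share. They are written 5′ to 3′ on the gene's strand, and capitals mark each match, read as TTTC, 2 bases and TTTC where the match lies on the other strand.

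Bst2, chr8:71537557-71537632, minus strand: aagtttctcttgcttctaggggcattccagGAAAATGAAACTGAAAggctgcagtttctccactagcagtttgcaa
Ifitm2, chr7:140955968-140956037, minus strand: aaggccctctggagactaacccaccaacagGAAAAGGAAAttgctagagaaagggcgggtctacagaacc
Ifitm3, chr7:141010715-141010772, minus strand: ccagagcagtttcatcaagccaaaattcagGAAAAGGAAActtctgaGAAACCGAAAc
Rsad2, chr12:26456533-26456602, minus strand: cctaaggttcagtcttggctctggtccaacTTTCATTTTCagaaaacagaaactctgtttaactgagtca
Apobec3, chr15:79892238-79892307, plus strand: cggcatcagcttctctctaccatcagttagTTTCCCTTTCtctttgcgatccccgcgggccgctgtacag
Trim30a, chr7:104465190-104465259, minus strand: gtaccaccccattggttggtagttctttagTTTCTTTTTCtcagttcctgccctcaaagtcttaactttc

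Bst2 held 2 overlapping matches, starting at -130 and -124 relative to the annotated start. Ifitm3 held 2 matches just downstream of its start, at 3 and 20, counting the start base as 1. The match lay at -46 in Ifitm2, -120 in Rsad2, -140 in Apobec3 and -36 in Trim30a. The second annotated start of Trim30a also had a match, whereas the second window of Apobec3 had none. The windows of Ifitm1 and Samhd1 held no match to these letters. A second motif, TTCNNNGAA, known as the gamma-activated site, occurred in Bst2, Ifitm3 and Samhd1 and in 9.55% of all genes. A match describes letters and does not show a bound site. Mx1 and Mx2 are named only.

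Expression is given in TPM, which divide the reads assigned to a gene by its length and set every library to the same total of 1000000, so that levels can be compared between genes. Read depth cannot be known from them. Between 12856 and 14747 genes reached 1 TPM in a library. The 3 libraries that follow carried RNA of another tissue. Combination replicate 2 had 5326 TPM summed over 8 adrenal cortex markers, panobinostat replicate 3 had 8409 TPM over 6 skeletal muscle markers, and vehicle replicate 2 had 437 TPM over 6 kidney markers. Muscle markers also summed to 649 TPM in combination replicate 1 and 534 TPM in CBL0137 replicate 2. Those tumours stayed in the fits below that left out the 3 libraries, so these fits do not remove all RNA of other tissue. The 15 sympathoadrenal markers were present throughout, summing to 908 to 1784 TPM in combination tumours, 2142 to 2504 TPM after CBL0137, 1304 to 1526 TPM after panobinostat and 1550 to 1827 TPM in vehicle tumours. Among all tested genes, 35.9% rose and 30.1% fell after the combination, 4.99% rose after CBL0137 and 16.9% fell after panobinostat. Over the 15 sympathoadrenal markers, 3 rose and 8 fell after the combination, 2 rose after CBL0137 and 2 fell after panobinostat. The median log2 differences of these markers from vehicle were -0.96, 0.16 and -0.20. With the 3 libraries left out, 2 rose and 8 fell after the combination and 0 passed after either single drug. The part of this in the levels of the restriction factors was not tested.

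All 10 restriction factors were higher in combination tumours than in vehicle tumours, and the order of their mean levels was different in each group. Their summed level was 2580 to 4403 TPM in combination tumours, 713 to 1564 TPM after CBL0137, 629 to 790 TPM after panobinostat and 152 to 193 TPM in vehicle tumours. The groups did not overlap except for CBL0137 and panobinostat. In bulk RNA, a gain in cells of a type and a gain in RNA per cell cannot be told apart.

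**Figure D1:**
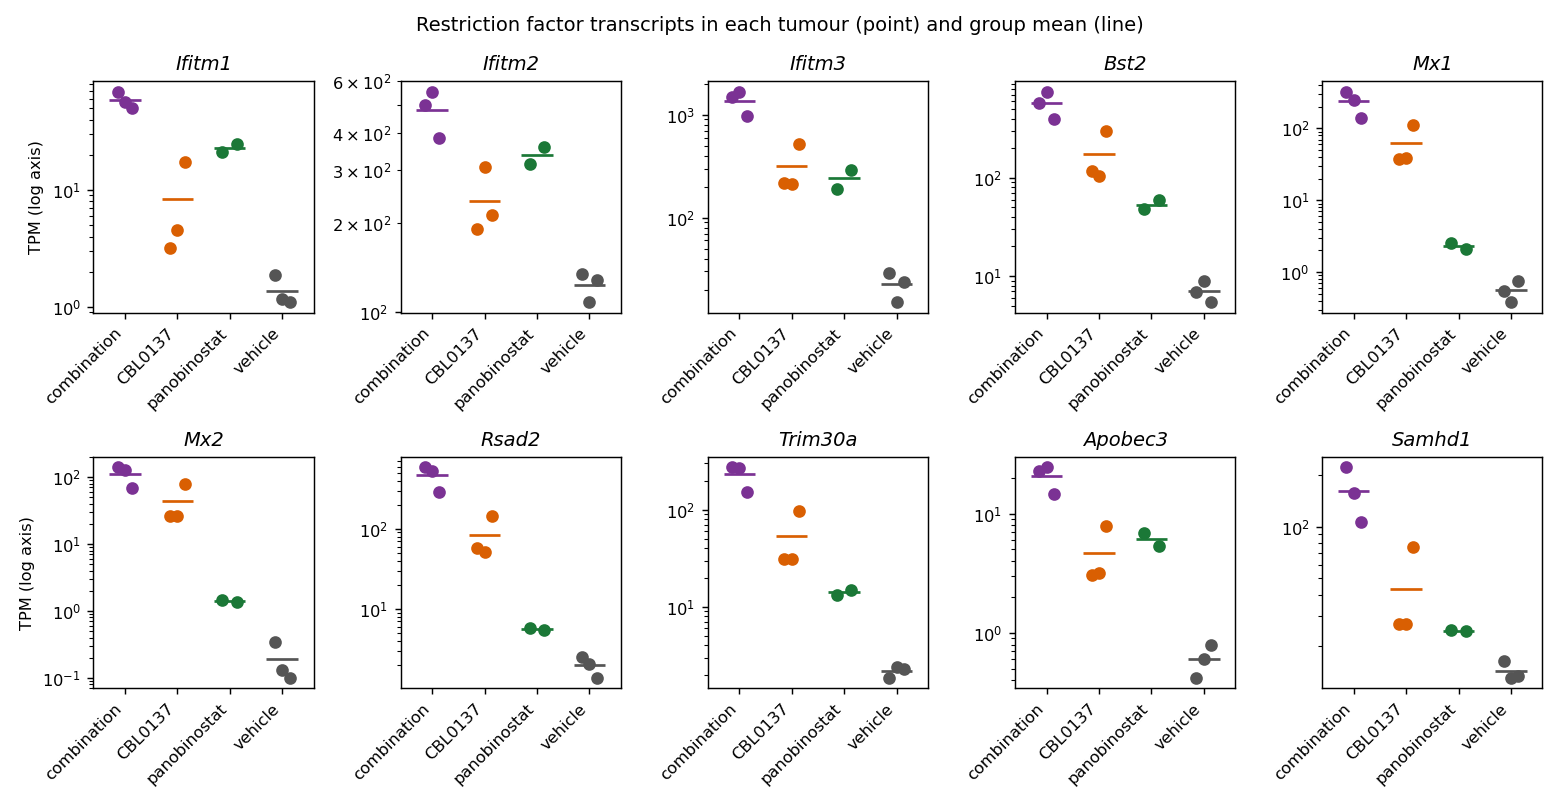
TPM on a log axis for each of the 10 genes, with 1 point per tumour and a line at the group mean, for combination, CBL0137, panobinostat and vehicle tumours. Mx1, Mx2 and Rsad2 lie far higher after CBL0137 than after panobinostat, whereas Ifitm1 lies lower.

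The IFITM proteins are small membrane proteins that hinder fusion of enveloped viruses with endosomal or surface membranes. Ifitm3, the family member best known for restricting influenza virus, stood at 1475, 1681 and 973 TPM in combination tumours, 218, 213 and 517 TPM after CBL0137, 189 and 292 TPM after panobinostat, and 28.7, 15.0 and 23.4 TPM in vehicle tumours. Every treated tumour was above every vehicle tumour, and the single drugs overlapped each other. Its log2(TPM + 1) was higher by 5.89 ± 0.37 in combination tumours, 3.68 ± 0.37 after CBL0137 and 3.38 ± 0.42 after panobinostat (difference from vehicle ± SE, limma).

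Ifitm1, which acts mainly at the cell surface, stood at 69.6, 56.3 and 49.9 TPM in combination tumours, 3.23, 4.55 and 17.5 TPM after CBL0137, 21.0 and 24.9 TPM after panobinostat, and 1.87, 1.18 and 1.10 TPM in vehicle tumours. Both panobinostat tumours were above all CBL0137 tumours, and CBL0137 replicate 3 stood well above its group. The rise was 4.65 ± 0.45 after the combination and 3.34 ± 0.50 after panobinostat, on the log2(TPM + 1) scale. After CBL0137 the difference was 1.68 ± 0.45 and did not pass (limma adjusted p = 0.0551), though it did without CBL0137 replicate 1 (adjusted p = 0.0247) or replicate 3 (adjusted p = 0.0297).

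Ifitm2, which restricts viruses that enter through endosomes, was already abundant without treatment. It stood at 499, 553 and 387 TPM in combination tumours, 191, 309 and 212 TPM after CBL0137, 316 and 360 TPM after panobinostat, and 134, 108 and 128 TPM in vehicle tumours. The groups did not overlap between any treatment and vehicle, but the ratios of the mean TPM were small, at 3.89, 1.93 and 2.75 for combination, CBL0137 and panobinostat tumours over vehicle tumours. The CBL0137 call of Ifitm2 (0.92 ± 0.19, adjusted p = 0.0222) was lost without any 1 of the vehicle tumours, with adjusted p of 0.0551 without replicate 1, 0.083 without replicate 2 and 0.0746 without replicate 3.

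These 3 genes lie within 55908 bases of mouse chromosome 7 (chr7:140954837-141010744). Their neighbours, looked up after the values were seen, moved in different directions. Ifitm6, a family member expressed in myeloid cells, averaged 63.6 ± 21.8 TPM in combination tumours, 6.91 ± 3.26 TPM after CBL0137, 18.2 ± 7.53 TPM after panobinostat and 0.75 ± 0.14 TPM in vehicle tumours (SD, n = 3, 3, 2 and 3). It rose in all 3 comparisons, by 5.16, 2.08 and 3.40 on the log2(TPM + 1) scale. Ifitm5, the bone-restricted member, differed by 0.76 between combination and vehicle tumours and did not pass (adjusted p = 0.0527). Nlrp6, an inflammasome receptor gene within 50000 bases of this stretch, fell by 1.33 after the combination. Ifitm1, Ifitm2 and Ifitm3 are near-copies in sequence, and how reads were divided among them is uncertain.

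Bst2 ties budding particles to the cell surface. Its level was 572, 755 and 401 TPM in combination tumours, 118, 105 and 299 TPM after CBL0137, 47.9 and 58.9 TPM after panobinostat, and 6.89, 8.89 and 5.41 TPM in vehicle tumours. The 4 groups did not overlap at any point. The rise was 6.14 ± 0.37 after the combination, 4.30 ± 0.37 after CBL0137 and 2.77 ± 0.42 after panobinostat, on the log2(TPM + 1) scale. Bst2 lies on chromosome 8 (chr8:71534255-71537472) beside Plvap, a gene of fenestrated endothelium. The genes within 50000 bases of Bst2, looked up after the values were seen, moved in different directions. Plvap (3.82 and 2.01), Mvb12a (1.38 and 0.86) and Slc27a1 (2.51 and 1.64) rose after the combination and after panobinostat, Tmem221 rose after the combination (1.05), and Ano8 fell after the combination (-1.19). Gtpbp3 differed by 0.14 after the combination and did not pass (adjusted p = 0.445).

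Mx1 and Mx2 encode dynamin-like GTPases that trap viral nucleoproteins, in the nucleus for mouse Mx1 and in the cytoplasm for mouse Mx2. Mx1 stood at 326, 249 and 139 TPM in combination tumours, 38.0, 39.0 and 113 TPM after CBL0137, 2.58 and 2.08 TPM after panobinostat, and 0.54, 0.38 and 0.75 TPM in vehicle tumours. Mx2 stood at 140, 128 and 68.8 TPM in combination tumours, 26.2, 25.9 and 77.8 TPM after CBL0137, 1.44 and 1.38 TPM after panobinostat, and 0.35, 0.13 and 0.10 TPM in vehicle tumours. For both genes every CBL0137 tumour was far above both panobinostat tumours. Only for Mx2 did a CBL0137 tumour, replicate 3, exceed a combination tumour, replicate 3.

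Mx1 rose by 7.19 ± 0.41 after the combination and by 5.18 ± 0.41 after CBL0137, on the log2(TPM + 1) scale. After panobinostat the difference was 1.10 ± 0.46 for Mx1 (adjusted p = 0.0795) and 1.02 ± 0.45 for Mx2 (adjusted p = 0.0916), and neither passed. Both passed without CBL0137 replicate 3, whose group shares in the estimate of the spread, with adjusted p of 0.0169 for Mx1 and 0.0157 for Mx2. Each of these panobinostat differences passed in only 3 of 21 alternative fits, and in 1 of 11 that left out 1 library. The pseudocount of 1 TPM compresses changes of genes this low in vehicle tumours. The 2 genes lie on chromosome 16, and the RefSeq annotation of the reference assembly lists both as transcribed pseudogenes, so their transcripts need not encode a working protein in every laboratory strain. They are relatives in sequence, and the division of reads between them is uncertain.

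Rsad2 (viperin) makes a chain-terminating nucleotide from CTP, and the kinase gene Cmpk2, which can supply CTP, lies 12664 bases away on chromosome 12. Rsad2 stood at 588, 528 and 288 TPM in combination tumours, 56.9, 52.0 and 145 TPM after CBL0137, 5.77 and 5.46 TPM after panobinostat, and 2.50, 2.03 and 1.37 TPM in vehicle tumours. After the combination it rose by 7.26 ± 0.38 on the log2(TPM + 1) scale, which ranked 16 among the 15497 tested genes. Its place among the 10 genes depended on the pseudocount. It had the highest change with 1 TPM, whereas with 0.1 TPM the change was 7.80 for Rsad2, 8.46 for Mx1 and 8.61 for Mx2. It rose by 4.71 ± 0.38 after CBL0137.

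After panobinostat Rsad2 passed narrowly (1.17 ± 0.43, adjusted p = 0.0485). That call held in 7 of 21 alternative fits, and among fits that left out 1 library it held in 3 of 11. Cmpk2 stood at 400, 408 and 178 TPM in combination tumours, 38.9, 39.0 and 105 TPM after CBL0137, 6.60 and 7.10 TPM after panobinostat, and 9.61, 7.86 and 9.81 TPM in vehicle tumours. Like Rsad2 it was highest in combination tumours and next after CBL0137, but its panobinostat tumours lay below the vehicle tumours, with a difference of -0.36 ± 0.45 that did not pass (adjusted p = 0.546). The ratio of Rsad2 to Cmpk2 TPM averaged 1.46 in combination tumours, 1.39 after CBL0137, 0.822 after panobinostat and 0.219 in vehicle tumours.

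Trim30a belongs to the mouse gene cluster that is related to the retroviral capsid sensor Trim5, and its protein is also known to dampen Toll-like receptor signalling. Its level was 274, 271 and 152 TPM in combination tumours, 31.3, 31.4 and 96.9 TPM after CBL0137, 13.3 and 14.8 TPM after panobinostat, and 1.85, 2.40 and 2.28 TPM in vehicle tumours. The 4 groups were fully separate. The rise was 6.15 ± 0.39 after the combination, 3.88 ± 0.39 after CBL0137 and 2.25 ± 0.44 after panobinostat, on the log2(TPM + 1) scale.

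Apobec3 encodes a cytidine deaminase that enters retroviral particles and restricts mouse retroviruses. It was the least abundant of the genes in combination and CBL0137 tumours. It stood at 22.8, 24.4 and 14.7 TPM in combination tumours, 3.06, 3.15 and 7.82 TPM after CBL0137, 6.81 and 5.37 TPM after panobinostat, and 0.42, 0.61 and 0.79 TPM in vehicle tumours. The single drugs overlapped, and both stood above vehicle. The rise was 3.72 ± 0.31 after the combination, 1.73 ± 0.31 after CBL0137 and 2.14 ± 0.35 after panobinostat.

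Samhd1 hydrolyses deoxynucleotides and so starves reverse transcription. It stood at 222, 157 and 106 TPM in combination tumours, 27.0, 27.1 and 76.3 TPM after CBL0137, 24.8 and 24.5 TPM after panobinostat, and 16.45, 13.05 and 13.31 TPM in vehicle tumours. Every treated tumour exceeded every vehicle tumour, but among the 3 comparisons with vehicle only that of the combination passed (3.36 ± 0.38). After CBL0137 it was 1.37 ± 0.38 (adjusted p = 0.0604), and after panobinostat 0.76 ± 0.42 (adjusted p = 0.174). The panobinostat difference passed without CBL0137 replicate 3 (adjusted p = 0.0391). Over 21 alternative fits, the CBL0137 difference passed in 2 and the panobinostat difference in 2.

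**Figure D2:**
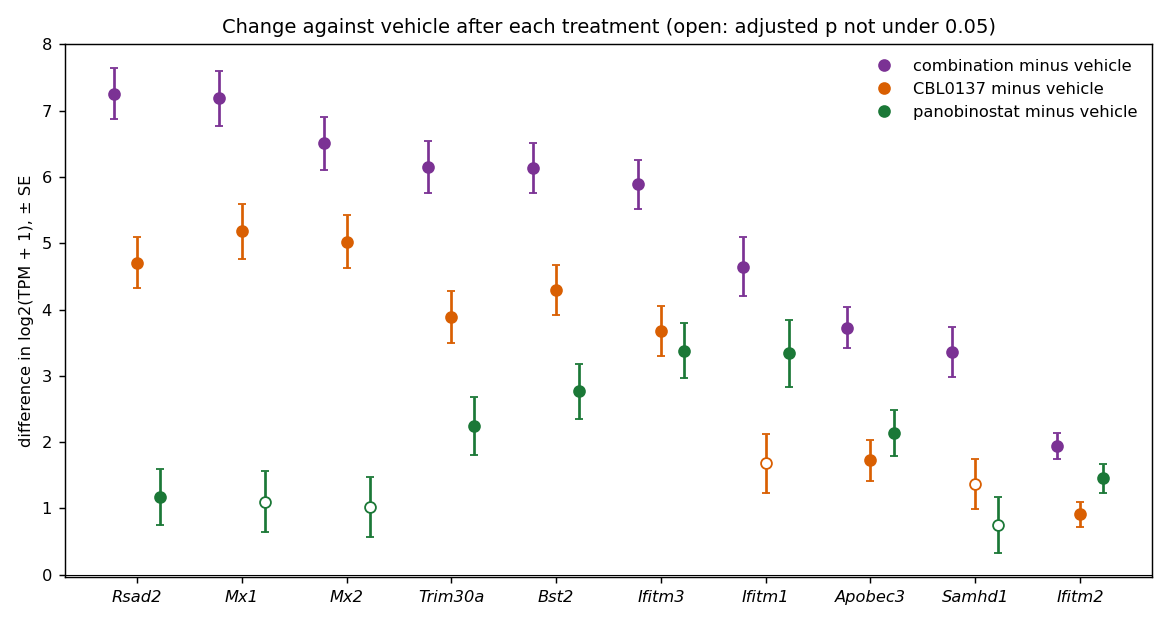
Difference from vehicle in log2(TPM + 1) for each gene after the combination, CBL0137 and panobinostat, with bars of 1 SE from limma; open points did not pass at an adjusted p of 0.05. The combination gives the highest value for each of the 10 genes, and the single drugs change places along the row.

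Against vehicle, all 10 genes passed as higher in combination tumours, where 35.9% of the 15497 tested genes did. After CBL0137, 8 passed as higher, where 4.99% of tested genes did, and Ifitm1 and Samhd1 did not. After panobinostat, 7 passed as higher, where 25.5% of tested genes did, and Mx1, Mx2 and Samhd1 did not. The groups of tumours did not overlap for any of the 10 genes in these comparisons, and all treated tumours were above all vehicle tumours in 38.4, 18.6 and 37.1% of tested genes for the combination, CBL0137 and panobinostat. The median difference over the 10 genes was 6.01, 3.78 and 1.80, beside 0.08, -0.01 and 0.10 over all tested genes. The 3 comparisons share the same vehicle tumours. Fitted by limma on the panobinostat and vehicle tumours alone, all 10 passed for panobinostat. Over all genes 6789 then passed in either direction, beside 6572 in the fit of all 4 groups. The adjusted p was then 0.0084 for Mx1, 0.0098 for Mx2 and 0.0084 for Samhd1. Under quantile normalization of all 11 libraries 6 of the 10 passed for panobinostat. All 10 genes passed the filter on low values, but Mx1, Mx2 and Apobec3 were under 1 TPM in every vehicle tumour and passed it only through treated tumours. Without the 3 libraries that carried other tissue, 1 panobinostat tumour was left, which is then assumed to vary like the other groups. Fewer of all genes then passed in each of the 3 comparisons. The combination calls of the 10 genes held. Ifitm2 (0.82) and Apobec3 (1.73) lost the call for CBL0137, and Rsad2 (1.23) and Trim30a (2.23) lost it for panobinostat.

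Between the single drugs, 6 of the 10 genes differed, most of them in favour of CBL0137. Mx1 was 4.08 higher on the log2(TPM + 1) scale after CBL0137 than after panobinostat (95% interval 3.05 to 5.11), Mx2 was 4.004 higher (3.00 to 5.00) and Rsad2 was 3.53 higher (2.58 to 4.49). These ranked 8, 9 and 21 among all tested genes. Trim30a (1.64) and Bst2 (1.53) were also higher after CBL0137, which made 5 genes, where 6.81% of tested genes passed as higher. Ifitm1 was the only one of the 10 to pass as lower after CBL0137 (-1.66 ± 0.50, adjusted p = 0.0448), where 12.1% of tested genes passed as lower.

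The other 4 genes did not pass between the single drugs. The difference was -0.54 for Ifitm2 (95% interval -1.01 to -0.07), 0.30 for Ifitm3 (-0.63 to 1.22), 0.62 for Samhd1 (-0.32 to 1.56) and -0.41 for Apobec3 (-1.18 to 0.36). The tumours of the drugs did not overlap for 8 of the 10 genes, whereas over all tested genes 22.2% had all CBL0137 tumours above and 30.7% had them all below. These calls rest on 2 panobinostat tumours. Without panobinostat replicate 3, the tumour with muscle RNA, no gene of the table passed, although the differences of Mx1, Mx2 and Rsad2 were 3.97, 3.99 and 3.50 (adjusted p = 0.0554 for each). Fitted on these 2 groups alone, the same 3 genes missed the threshold too (adjusted p = 0.0526 for each). Without panobinostat replicate 1, or without CBL0137 replicate 1, 3 of the 10 passed, namely Mx1, Mx2 and Rsad2. The Ifitm1 call held in 6 of 21 alternative fits.

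**Figure D3:**
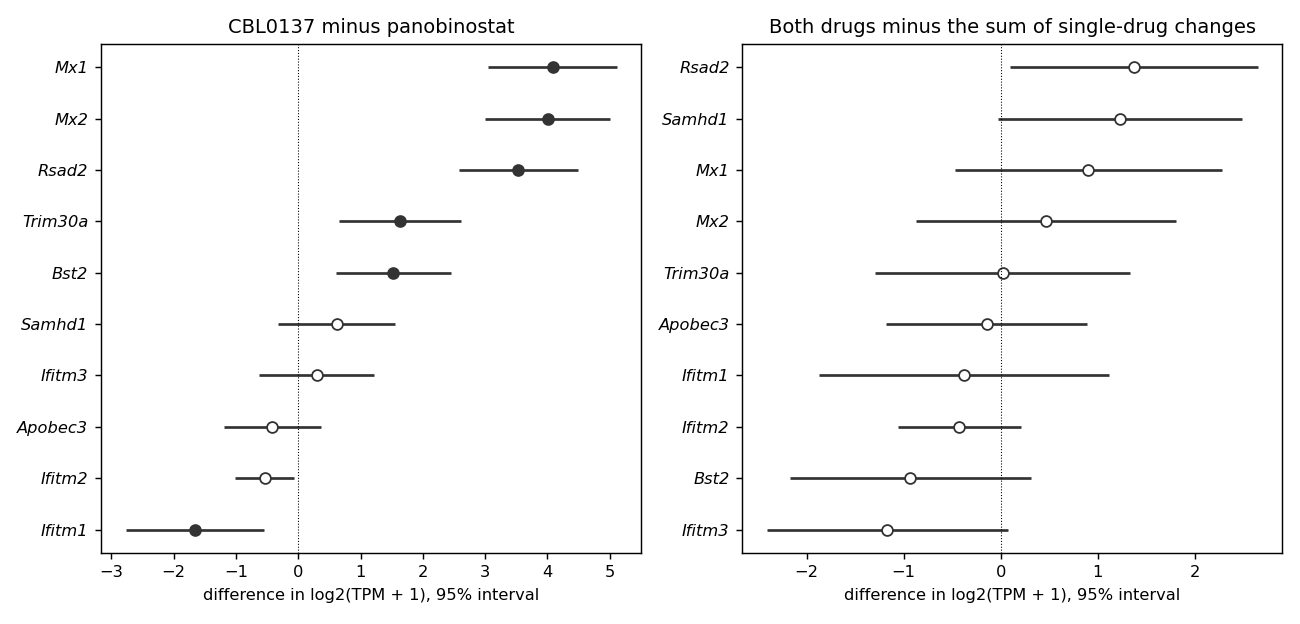
Left, CBL0137 minus panobinostat, and right, the interaction of the drugs (combination change less the 2 single-drug changes added up), each in log2(TPM + 1) with its 95% interval; filled points passed at an adjusted p of 0.05. Mx1, Mx2 and Rsad2 sit at the top on the left with values between 3.53 and 4.08, and no point is filled on the right.

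Adding panobinostat to CBL0137 gave higher levels of all 10 genes. The combination exceeded CBL0137 by between 1.03 for Ifitm2 and 2.96 for Ifitm1, and all 10 passed as higher, where 33.2% of tested genes did. Rsad2 (2.55), Trim30a (2.27) and Ifitm3 (2.21) followed Ifitm1 in size. For 9 of the 10 the tumours did not overlap, with Mx2 the exception, and 36.9% of tested genes had all combination tumours above. Without the 3 libraries with other tissue, 9 passed, and Mx2 did not (1.36, adjusted p = 0.0662).

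Adding CBL0137 to panobinostat gave a different order. The combination exceeded panobinostat by 6.09 for Mx1, 6.08 for Rsad2 and 5.49 for Mx2, which ranked 6, 7 and 18 among tested genes. Then came Trim30a (3.90), Bst2 (3.37), Samhd1 (2.60), Ifitm3 (2.51) and Apobec3 (1.58). These 8 passed as higher, where 6.24% of tested genes did, whereas Ifitm1 (1.31, adjusted p = 0.103) and Ifitm2 (0.49, adjusted p = 0.136) did not. For all 10 genes every combination tumour was above both panobinostat tumours, which held for 25.1% of tested genes. Without the 3 libraries with other tissue none of the 10 passed, and 2 genes of the whole table did, while the difference of Mx1 was 5.90 (adjusted p = 0.0673). Without panobinostat replicate 1, 5 passed, and Ifitm3, Samhd1 and Apobec3 did not. The Apobec3 call was also lost without panobinostat replicate 3 (adjusted p = 0.0876) and without combination replicate 1 (0.0651) or 2 (0.0749).

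Whether both drugs together did more than the sum of the single-drug changes was tested as an interaction on the log2(TPM + 1) scale. By limma, 0 of the 10 genes and 0% of tested genes passed, and 1631 of 15497 genes had an unadjusted p under 0.05. The highest estimates were 1.37 for Rsad2 (95% interval 0.10 to 2.65, adjusted p = 0.448) and 1.23 for Samhd1 (-0.03 to 2.49). The lowest were -1.17 for Ifitm3 (-2.41 to 0.07) and -0.93 for Bst2 (-2.18 to 0.31). Intervals of this width leave the size of any departure undetermined. Over 20 alternative fits, 0 of the 10 genes passed in any.

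The make-up of the restriction factor transcripts was different in each group. Ifitm2 made up 13.2 ± 1.63% of the summed TPM of the 10 genes in combination tumours, 26.2 ± 12.3% after CBL0137, 48.0 ± 3.32% after panobinostat and 71.0 ± 1.66% in vehicle tumours (SD, n = 3, 3, 2 and 3). Ifitm3 took 35.2 to 38.2% in combination tumours, 26.3 to 33.1% after CBL0137, 30.03 and 37.01% after panobinostat and 9.92 to 14.8% in vehicle tumours. The ratio of Ifitm3 to Ifitm2 was 2.84 ± 0.28 in combination tumours, 1.42 ± 0.91 after CBL0137, 0.704 ± 0.152 after panobinostat and 0.179 ± 0.038 in vehicle tumours. Rsad2 held 12.4 ± 1.47% in combination tumours, 7.90 ± 1.44% after CBL0137, 0.804 ± 0.160% after panobinostat and 1.14 ± 0.313% in vehicle tumours.

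**Figure D4:**
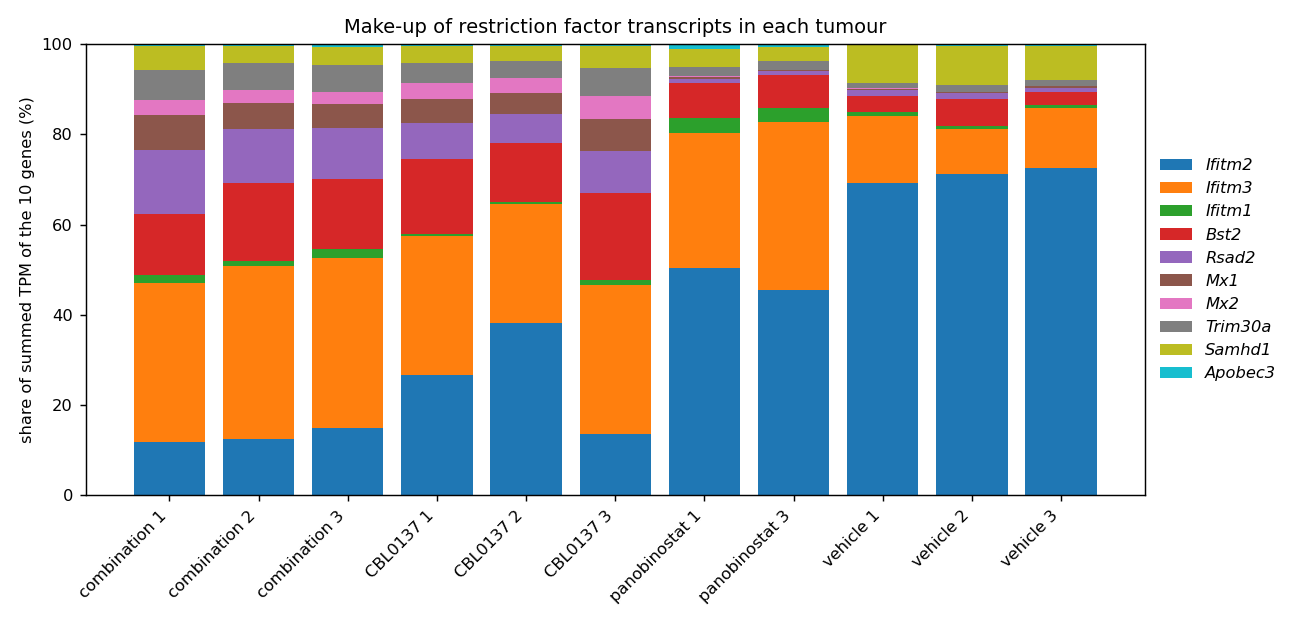
Stacked bars of each gene's share of the summed TPM of the 10 genes, in percent, for each of the 11 tumours, in the order combination, CBL0137, panobinostat and vehicle. Ifitm3 is the largest part of the combination bars (35.2 to 38.2%), and Ifitm2 fills most of the vehicle bars (69.2 to 72.5%).

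By level, Ifitm3 ranked highest of the 10 in combination and CBL0137 tumours, and Ifitm2 in panobinostat and vehicle tumours. In combination tumours only the top gene, Ifitm3, and the bottom gene, Apobec3, were separate from their neighbours in this order, and each other pair of neighbours overlapped. After CBL0137 the tumours of neighbouring genes overlapped for every pair but Mx2 and Ifitm1. After panobinostat Mx1 and Mx2 were the lowest, separate from Rsad2 above them. In vehicle tumours Ifitm2 stood apart at the top and Mx2 at the bottom.

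The tumours of a group differed from each other in a way that most of the genes shared. CBL0137 replicate 3 had the highest level of its group for 9 of the 10 genes, with Ifitm2 the exception, and the highest over the lowest tumour was 1.62 to 5.41 over the genes. Combination replicate 3 had the lowest level for all 10, with a ratio of 1.39 to 2.34. The panobinostat tumours differed by a ratio of 1.01 to 1.55.

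Markers of macrophages, fibroblasts and endothelium also rose against vehicle, with another order of the single drugs. Their median differences were 2.72, 3.13 and 2.15 after panobinostat and 1.52, 1.18 and 1.13 after CBL0137. The median over the 10 restriction factors was 1.80 after panobinostat and 3.78 after CBL0137. The 18 macrophage and monocyte markers summed to 8422 to 12089 TPM in combination tumours, 2061 to 4163 TPM after CBL0137, 5073 to 6427 TPM after panobinostat and 939 to 1170 TPM in vehicle tumours, and 18, 12 and 18 of them rose against vehicle. The 15 fibroblast and pericyte markers summed to 5165 to 6232, 779 to 1791, 3558 to 4254 and 342 to 550 TPM in the same order of groups, and 15, 4 and 15 rose. The 12 endothelial markers summed to 577 to 1119, 121 to 300.5, 308 to 353 and 55.5 to 92.4 TPM, and 12, 3 and 12 rose. Among all tested genes, 35.9, 4.99 and 25.5% rose after the combination, CBL0137 and panobinostat. Every panobinostat tumour was above every CBL0137 tumour in the 3 marker sums, as it was in Ifitm1 and Ifitm2. Mx1, Mx2, Rsad2, Bst2, Trim30a and Samhd1 had the opposite order, and the tumours overlapped for Ifitm3 and Apobec3. Without the 3 libraries with other tissue, 18, 5 and 18 macrophage markers, 15, 0 and 14 fibroblast markers and 12, 0 and 7 endothelial markers rose after the combination, CBL0137 and panobinostat.

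Of the other lists, all 6 neutrophil markers rose after the combination and after panobinostat, and 2 of 6 after CBL0137, or 0 of 6 with the 3 libraries with other tissue left out. Of these 6, 3 were under 1 TPM in every vehicle tumour. The sums were 446 to 619 TPM in combination tumours, 32.6 to 75.9 TPM after CBL0137, 188 to 360 TPM after panobinostat and 3.08 to 18.6 TPM in vehicle tumours. Dendritic cell markers summed to 58.2 to 74.4 TPM in combination tumours and 9.89 to 12.2 TPM in vehicle tumours. T and NK cell markers summed to 57.4 to 143 TPM in combination tumours, 15.4 to 98.9 TPM after CBL0137, 26.6 to 26.8 TPM after panobinostat and 7.03 to 9.44 TPM in vehicle tumours. Of 14 tested, 10, 0 and 3 rose after the combination, CBL0137 and panobinostat, where 35.9, 4.99 and 25.5% of all tested genes did. The counts were 7, 0 and 0 without the 3 libraries and 6, 0 and 0 under quantile normalization. Of the 14, 11 were under 1 TPM in every vehicle tumour and so entered the test only through treated tumours, and Ncr1 and Gzmb were listed at 0 in every vehicle tumour.

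CBL0137 replicate 3, the tumour with the highest restriction factor levels of its group, also had the highest sums of macrophage (4163 TPM), fibroblast (1791 TPM), T and NK cell (98.9 TPM) and B cell markers (165 TPM, beside 5.37 and 28.9 TPM in the other CBL0137 tumours). Combination replicate 3, lowest for all 10 genes, had the lowest sums of its group for neutrophil (446 TPM), T and NK cell (57.4 TPM) and B cell markers (21.7 TPM). It was not the lowest in macrophage (8937 TPM, beside 8422 TPM in replicate 1), dendritic cell, endothelial or fibroblast markers. The part of these cell types in the levels of the restriction factors was not tested.

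**Figure D5:**
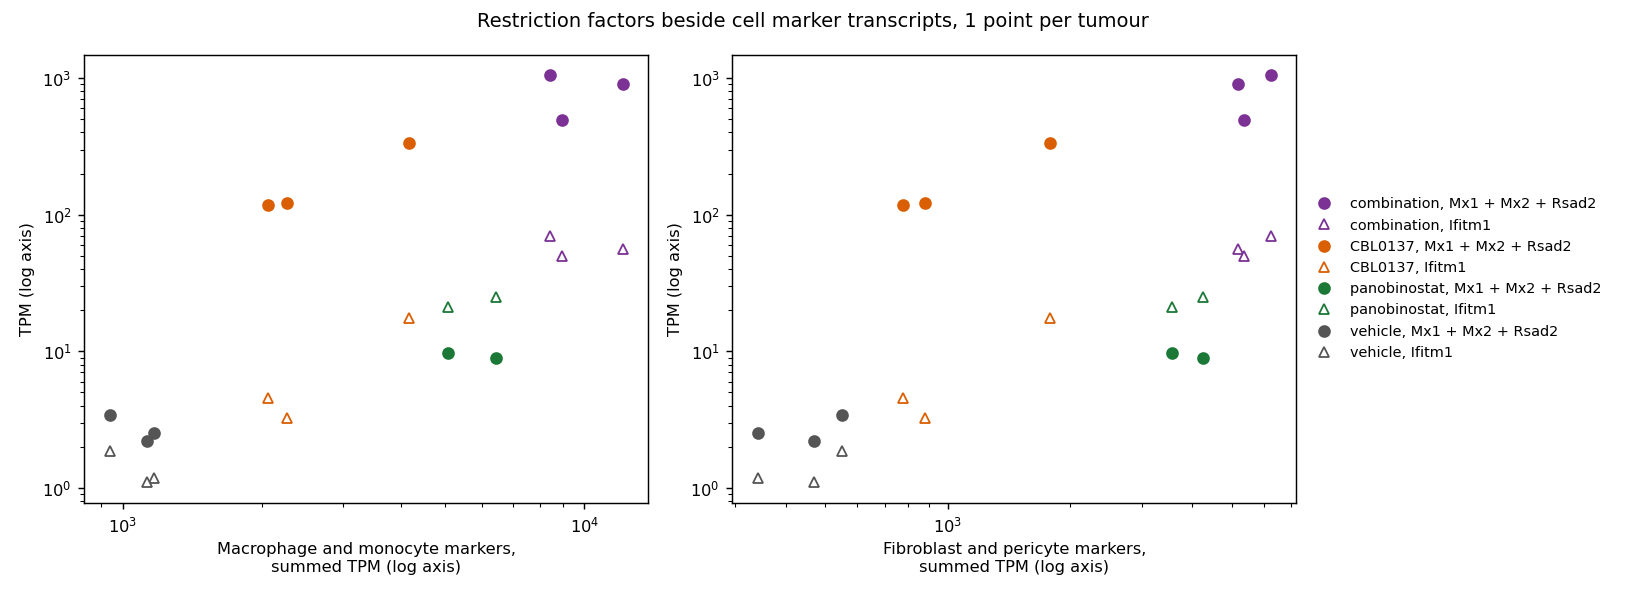
Summed TPM of Mx1, Mx2 and Rsad2 (filled circles) and TPM of Ifitm1 (open triangles) against the summed TPM of macrophage and monocyte markers (left) and fibroblast and pericyte markers (right), all on log axes, with 1 tumour per point. The panobinostat tumours lie right of the CBL0137 tumours on both marker axes, but their Mx1, Mx2 and Rsad2 sum is 8.92 and 9.79 TPM, beside 117 to 336 TPM after CBL0137.

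Genes of type I interferon induction and signalling rose as well. Ifnb1, the gene of interferon beta, stood at 13.7, 25.7 and 3.99 TPM in combination tumours and 4.23, 2.49 and 8.65 TPM after CBL0137, and was listed at 0 in all panobinostat and vehicle tumours. The list of type I interferon induction and signalling held 20 genes. Of these, 20 rose after the combination, 13 after CBL0137 and 15 after panobinostat, where 35.9, 4.99 and 25.5% of tested genes did. The median differences of the 20 genes were 3.61, 1.91 and 1.48, beside 0.08, -0.01 and 0.10 over all genes. Without the 3 libraries with other tissue, 1 panobinostat tumour was left. Fewer of the 20 genes, and of all genes, then passed in each comparison, and the medians of the 20 were 3.36, 1.88 and 1.35. Ifnb1, Usp18 and 2 others of the 20 genes were under 1 TPM in every vehicle tumour and entered the test only through treated tumours.

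Within that list, Irf9 and Irf7 rose after each treatment, Irf7 by 7.55, 5.53 and 1.77. Stat2 rose after the combination (4.42) and CBL0137 (2.08), whereas its difference after panobinostat was 0.71 (adjusted p = 0.184). Usp18, an interferon-induced brake on the receptor, rose by 7.51, 6.50 and 1.60 after the combination, CBL0137 and panobinostat. After panobinostat the lowest adjusted p of the list belonged to Mavs (1.63), the adaptor of RNA sensing, Ifnar2 (1.68), a receptor chain, and Tmem173 (2.33), which encodes STING.

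Of 27 other antiviral restriction genes, 25 rose and 1 fell after the combination, 16 rose after CBL0137 and 18 rose after panobinostat. Among all tested genes, 35.9% rose and 30.1% fell after the combination, 4.99% rose after CBL0137 and 25.5% rose after panobinostat. With the 3 libraries with other tissue left out, fewer of the 27 genes, and of all genes, passed in each comparison. The median differences of the 27 genes were then 3.71, 1.96 and 1.26, beside 3.79, 1.86 and 1.55 with all libraries. Under quantile normalization of all 11 libraries, 8 of the 27 rose after panobinostat. Ifit1, which binds viral RNA caps, averaged 538 ± 216 TPM in combination tumours, 119 ± 71.1 TPM after CBL0137, 5.07 ± 2.21 TPM after panobinostat and 0.713 ± 0.385 TPM in vehicle tumours (SD, n = 3, 3, 2 and 3). Isg15 rose by 7.75, 5.56 and 1.89 after the combination, CBL0137 and panobinostat, Ifi204 by 7.02, 4.61 and 3.13 and Oas1a by 6.45, 4.56 and 2.43. Zc3hav1, the zinc-finger antiviral protein that binds CpG-rich RNA, rose by 4.64, 2.45 and 2.30 after the combination, CBL0137 and panobinostat. Fv1, a capsid-binding restriction gene derived from an endogenous retrovirus, was the member that fell. It averaged 8.42 ± 1.61 TPM in combination tumours and 18.0 ± 0.72 TPM in vehicle tumours, a difference of -1.02.

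Relatives of the 10 genes by family were 15, of which 13 were in the table and 8 were tested. Of these, 6 rose after the combination, 6 after CBL0137 and 3 after panobinostat, and without the 3 libraries with other tissue 6, 0 and 3 did. Over all tested genes, 35.9, 4.99 and 25.5% rose. Of the 8, Ifitm6, Trim30d, Trim34a and Trim34b were under 1 TPM in every vehicle tumour and entered the test only through treated tumours, so the counts do not stand for the whole family. Trim30d rose by 4.91 after the combination and 2.48 after CBL0137, and Trim12c by 4.71, 2.33 and 2.14 after the combination, CBL0137 and panobinostat. Apobec1, an RNA-editing deaminase, rose by 3.81, 1.74 and 2.76, and was lower after CBL0137 than after panobinostat (-1.03, adjusted p = 0.0279). Apobec2, a muscle-expressed relative, stood at 84.0 TPM in the panobinostat tumour with muscle RNA and 2.45 TPM in the other.

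Genes that silence retroelements in chromatin mostly fell after the combination. Of 14, 3 rose and 10 fell after the combination, where 30.1% of tested genes fell. After panobinostat 6 fell, where 16.9% of tested genes did, and after CBL0137 only Pphln1 fell (-0.47), where 1.13% did. With the 3 libraries with other tissue left out, 10 fell after the combination, 3 after panobinostat and 0 after CBL0137. Trim28, the corepressor that recruits Setdb1, averaged 107 ± 25.1 TPM in combination tumours, 206 ± 13.5 TPM after CBL0137, 158 ± 19.3 TPM after panobinostat and 282 ± 6.66 TPM in vehicle tumours (SD, n = 3, 3, 2 and 3). Smc6 fell by 1.25 and Mphosph8, a subunit of the HUSH complex, by 0.81 after the combination, whereas Morc3 rose by 0.96.

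The deoxynucleotide genes are the substrate side of Samhd1. Of 13 genes of deoxynucleotide supply, 5 rose and 7 fell after the combination, 1 rose after CBL0137 (Cmpk2, 2.46) and 6 fell after panobinostat. Over all tested genes, 35.9% rose and 30.1% fell after the combination, 4.99% rose after CBL0137 and 16.9% fell after panobinostat, so the shares that rose lay near those of all genes. Without the 3 libraries with other tissue, 4 rose and 7 fell after the combination, 3 fell after panobinostat and 0 rose after CBL0137. Rrm2, the regulated subunit of ribonucleotide reductase, stood at 79.8, 18.3 and 96.8 TPM in combination tumours and 211, 189 and 195 TPM in vehicle tumours, and fell by 1.90. Dut (-2.18), Tyms (-1.86) and Dctd (-1.70) also fell. The genes that rose were Cmpk2 (4.94), Dguok (0.89), Tk2 (0.78), Cmpk1 (0.54) and Dck (0.43).

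For each restriction factor, the genes of most similar pattern were sought over the 11 tumours by the root mean square difference of log2(TPM + 1) after subtraction of the vehicle mean. The members fell near different kinds of gene. Mx1, Mx2 and Rsad2 lay nearest to the interferon-inducible GTPase genes Tgtp2 (0.20), Gvin1 (0.24) and Tgtp1 (0.29), and Trim30a to the helicase gene Ddx60 (0.16). Bst2 lay nearest to Ifi202b (0.25). Ifitm3 lay nearest to the Fc receptor gene Fcgr1 (0.33) and Samhd1 to Tlr9 (0.19). Among the patterns near that of Ifitm1 was Serping1 (0.32), a complement inhibitor gene. Apobec3 lay nearest to Car13 (0.17) and Il10ra (0.18), and Ifitm2 to Gstm4 (0.20). Among the 10 themselves, Mx1 and Rsad2 were the closest pair (0.32), and the nearest partner of Ifitm2 lay at 0.95.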

How the data were processed

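RNA of 11 tumours was grouped by the treatment in each label. Per the submitters' processing notes, the authors' tools were STAR, SAMtools and RSEM, and their build mm10. Versions, annotation and the use of strand in counting are not given in the sources used here. The authors deposited TPM for 24411 genes, with a sum of 1000000 in each library. Depth, counting intervals and detection limits cannot be derived from them. For 27 rows whose symbol had become a date, the name came from the RefSeq accession.

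From these values, log2(TPM + 1) was computed for 15497 genes that reached 1 TPM in 2 or more libraries, and 8914 were left out. Fold changes on this scale understate changes of low genes. One limma 3.58.1 model (R 4.3.3) fitted 4 group means over all 11 libraries, with a trended prior and 7 residual degrees of freedom. The 7 contrasts were 2-sided, with Benjamini-Hochberg adjustment over all tested genes and a threshold of 0.05. The fit was tested on simulated data. An exact permutation test of 3 against 3 libraries cannot go below 0.1 for a single gene. Each library is described as 1 mouse, and p-values set the differences between groups against the spread between these tumours within groups.

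Named genes were the 10 restriction factors, their 2 nearest patterns each, up to 4 members of each gene list with the lowest adjusted p, and Stat2, Irf9, Irf7, Usp18, Ifnb1, Cmpk2 and Rrm2. Other named list members and the neighbouring genes were chosen after their values were seen. Members and lists were chosen with earlier results of these data known. Alternatives were pseudocounts of 0.1 and 5 TPM, filters of 5 TPM or none, scaling by TMM factors or by quantiles, a replicate block, no trend, only the groups compared, and each library left out in turn. Leaving out the 3 libraries with other tissue together was added after the data were seen. Promoters and positions are from RefSeq GRCm38.p6. Python 3.11.15 with pandas 2.3.3, numpy 2.4.6 and matplotlib 3.10.9 prepared tables and figures. Panobinostat replicate 2 and the transgene were not analysed here. Some genes that the rule for named genes names are not reported here.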

Additional observations from a re-analysis of the deposited data

How the results depend on the processing

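Of 1460 values of single restriction factors under the alternatives, 1348 kept direction and side of the threshold, 74 lost and 17 gained a call and 21 changed sign. The count of the 10 genes that passed was 10 in every fit for the combination against vehicle. With each library left out in turn it was 7 to 9 for CBL0137 and 6 to 10 for panobinostat against vehicle, 10 for the combination against CBL0137, 5 to 9 for the combination against panobinostat, 0 to 6 for CBL0137 against panobinostat and 0 for the interaction. Counts over all genes were 9255 to 10296, 324 to 1333, 4049 to 7174, 7136 to 8917, 362 to 3366, 0 to 4022 and 0 to 44 for the same comparisons.

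With a pseudocount of 5 TPM, 547 genes passed for CBL0137 against vehicle (949 in the fit reported). Fitting only the groups compared gave 523 genes for the combination against panobinostat (1634 reported), and 0 of the 10 and 8 of all genes for CBL0137 against panobinostat (2935 reported). Quantile normalization gave 3327 genes for the combination against panobinostat. Without the 3 libraries with other tissue, fewer samples remained, and the counts over all genes were 198 for CBL0137 and 3262 for panobinostat against vehicle (6572 reported), 2 for the combination and 0 for CBL0137 against panobinostat, and 2 for the interaction. The 10 genes then gave 0 in both comparisons with panobinostat. The cause of the other shifts was not tested.

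Deviations from the group means correlated at -0.26 to 0.19 between same-numbered tumours (15 pairs) and at -0.25 to 0.30 between others (30 pairs). With groups of 2 or 3 tumours, these values cannot settle whether replicate numbers pair the tumours. With the replicate number as a block, 521 genes passed for CBL0137 against vehicle, 345 for the combination against panobinostat, and 1249, with 3 of the 10, for CBL0137 against panobinostat.

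Sign changes concerned differences that did not pass. For CBL0137 against panobinostat, Apobec3 was at 0.082 under quantile normalization, and Ifitm3 ranged from -0.12 to 0.61 with single libraries left out. For the interaction, the pseudocount of 0.1 TPM gave -0.95 for Mx2 and -0.35 for Trim30a, that of 5 TPM gave 0.25 for Ifitm1 and 0.44 for Apobec3, TMM factors gave -0.055 for Trim30a, quantile normalization 0.41 for Apobec3, and leaving out the 3 libraries -0.10 for Trim30a. With single libraries left out, it ranged from -0.25 to 0.55 for Trim30a, -0.79 to 0.27 for Ifitm1 and -0.34 to 0.22 for Apobec3.

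Against the fit reported, TMM factors moved the median of all genes by -0.13 for the combination against vehicle and -0.14 against CBL0137. Quantile normalization moved it by -0.35 and -0.25 there, by -0.28 for panobinostat against vehicle and by 0.19 for CBL0137 against panobinostat. Under it 38.4% of called genes were higher in the combination than in vehicle, beside 54.4% in the fit reported. TPM give no depth, so precision at low values is unknown, and the panobinostat group of 2 limits every comparison with it.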
